A study of Drosophila melanogaster with 4 samples.

Results

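The genes that give cells of the wing pouch their identity were followed across larval wing discs of 4 genotypes. They are vestigial (vg), scalloped (sd), Distal-less (Dll), nubbin (nub), pdm2, rotund (rn), defective proventriculus (dve) and cut (ct). These 8 genes were picked by symbol, out of 7451 genes with a row in at least 1 of the authors' 4 deposited tables. The discs came from third-instar Drosophila melanogaster, with 100 to 120 discs per preparation per the labels, and were read by droplet-based single-cell RNA sequencing. Every genotype carried ap-Gal4>GFP over a wild-type chromosome. To this the Cdk8-CycC depletion added UAS-Cdk8i-cycCi, the Med12 depletion UAS-Med12i, and the combined depletion UAS-Cdk8i-cycCi-Med12i, each heterozygous, whereas Control discs carried the driver and GFP alone. Each genotype had 1 library, so no difference here has a replicate error or a test.

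The wing pouch is the part of the disc that becomes the wing blade. The Vg protein has no DNA-binding domain of its own and acts with Sd, a DNA-binding protein of the TEAD family. Together they act as the wing selector, which switches on wing genes. Sd also carries Yorkie, the effector of the Hippo pathway, to DNA. Nub and Pdm2 are POU-homeodomain proteins, Rn is a zinc-finger protein, and Dll, Dve and Ct are homeodomain proteins. Wingless signalling feeds into vg and Dll, while ct is switched on by Notch along the boundary of dorsal and ventral cells that forms the wing margin. Vg and Ct are also present in the adult muscle precursors beneath the disc epithelium. The CDK8 module, made of Cdk8, Cyclin C, Med12 and Med13, binds the Mediator complex, which links transcription factors to RNA polymerase.

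The driver acts in dorsal cells, and each table sets GFP-positive (dorsal) against GFP-negative cells of its own library. Every cell in the tables had nub detected, so the values describe dorsal and ventral cells of the nub domain. A fold below refers to mean expression in GFP-positive over GFP-negative cells, on a log2 scale, and a detection share is the percentage of cells in which a gene was found. Cell numbers were not among the sources used here, so depth is unknown and no interval could be set on a share. The tables held 6799 genes for the Cdk8-CycC depletion, 5568 for the Med12 depletion, 6377 for the combined depletion and 5524 for Control. All rows had the authors' p-value below 0.01, and a gene without a row has no value here. Over 4300 genes with rows in all 4 tables, the median detection share in GFP-positive cells was 39.3% for Cdk8-CycC, 50.4% for Med12 and 50.7% for combined depletion, against 32.5% for Control. In GFP-negative cells these medians were 24.5%, 36.7% and 35.0%, against 22.35% for Control. For 98.5% to 99.4% of genes per library the detection share was higher in the GFP-positive set, so a gene found more often there is the rule in these data. Such a share does not separate the amount of RNA read per cell from the regulation of a gene.

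The compartment labels and targeted genes were checked first. The dorsal selector gene ap was found in 62.6% to 68.1% of GFP-positive cells and 5.3% to 7.2% of GFP-negative cells, and the ventral integrin gene if in 18.3% to 30.9% and 38.1% to 50.3%. Of the other dorsal markers, Dr passed the size rule given below in every library, at log2 folds of 0.51 to 0.61, and the integrin gene mew in Control alone, at 0.50, with differences from Control of -0.45 under Med12 and -0.38 under combined depletion. The mew calls would be lost with the deposited fold read as log2. Of the rest of this list, Ser passed in the combined depletion alone, at 0.55, and fng in no library, at 0.30 to 0.37. The listed markers caps and trn lay close to even, between -0.08 and 0.02, and had no row in the combined depletion. Wherever Cdk8, CycC or the Med12 gene kto was targeted, it was detected in fewer GFP-positive than GFP-negative cells, and wherever it was not, in more. CycC was still found in 18.9% of GFP-positive cells of the Cdk8-CycC library and 32.8% of the combined one. The check list of adult muscle precursor markers had rows for 2, 1 and 2 of 7 genes in the Cdk8-CycC, Med12 and combined depletions and for 0 of 7 in Control, and the defining gene twi had none. The shares of those with a row summed to 58.6%, 14.6% and 79.0% in GFP-positive and 38.5%, 4.0% and 55.2% in GFP-negative cells, and the part of such cells in the vg and ct values was not tested. These sums do not cover the same genes, as Mef2 had no row under Med12 depletion. Mef2 was at 50.0% and 65.3% of GFP-positive cells in the Cdk8-CycC and combined depletions. SPARC, with a row in all 3 depletions, was at 8.6%, 14.6% and 13.7% of GFP-positive and 4.6%, 4.0% and 4.4% of GFP-negative cells. Of 7 hemocyte markers, 0 had a row in any table.

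Most selector genes lay on the ventral side of the comparison or close to even. With a row were 7 members for the Cdk8-CycC depletion, 4 each for the Med12 and combined depletions, and 5 for Control. The log2 fold was below 0 for 6 of 7, 2 of 4 and 3 of 4 members in the depletions and for 3 of 5 in Control. Among all genes the share below 0 was 22.4% for Cdk8-CycC, 26.1% for Med12 and 23.9% for combined depletion, and 44.2% for Control. Single genes were judged by size, with 1.3-fold as the smallest difference counted and a detection share of 10% or more required in either set. By it nub was lower in GFP-positive cells under Med12 and combined depletion, and no member was higher in any library. In the same direction the rule took 0.165% of genes for Cdk8-CycC, 0.364% for Med12, 0.446% for combined depletion and 0.0792% for Control. The median fold of the members was -0.13, -0.08 and -0.24 in the Cdk8-CycC, Med12 and combined depletions and -0.03 in Control, beside 0.02, 0.02, 0.02 and 0.00 for all genes. The members with a row differed between the libraries, so these counts and medians do not compare the same genes. Over members also in Control, the median difference was 0.01 for 5 members under Cdk8-CycC depletion. It was -0.04 for 3 under Med12 and -0.16 for 3 under combined depletion, beside 0.02 for all genes in each.

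**Figure D1:**
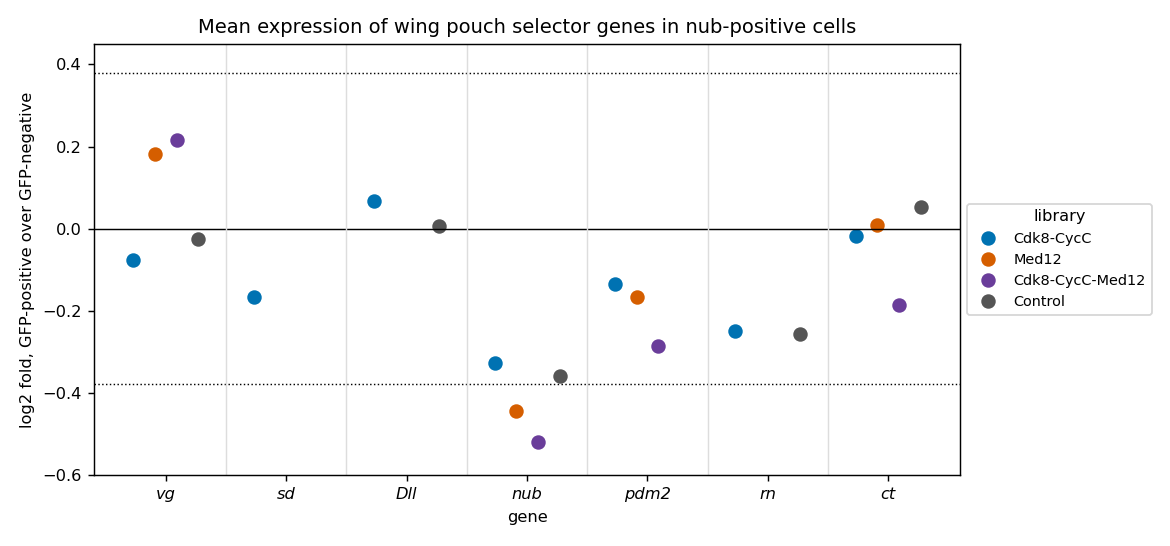
Log2 fold of mean expression, GFP-positive over GFP-negative cells, for the 7 members with a row in any table, 1 point per library; dotted lines mark a fold of 1.3 in either direction and points are missing where a gene had no row. The points for nub and pdm2 all lie below 0, and vg lies above 0 in the Med12 and combined depletions alone.

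The wing selector gene vg was on opposite sides of even in the libraries that targeted Med12 and in those that did not. Its log2 fold was -0.08 in the Cdk8-CycC depletion, 0.18 in the Med12 depletion and 0.22 in the combined depletion, against -0.03 in Control. By detection, the authors' deposited table of the Cdk8-CycC depletion gave vg in 66.8% of GFP-positive cells and 55.3% of GFP-negative cells. Those shares became 73.8% and 54.2% in the Med12 table, and 74.9% and 51.2% in that of the combined depletion. The Control table gave 64.2% and 52.4%. All 4 GFP-positive shares were thus above all 4 GFP-negative ones, and the gap was widest in the combined depletion, at 23.7 percentage points, followed by Med12 at 19.6, against 11.8 in Control and 11.5 under Cdk8-CycC depletion.

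Relative to Control, the log2 fold of vg differed by 0.21 under Med12 depletion and by 0.24 under combined depletion, the 55th highest of 4574 and the 33rd highest of 4973 genes compared. Under Cdk8-CycC depletion it differed by -0.05. None of the 3 passed the size rule, which 0.118% of genes passed for Cdk8-CycC, 0.380% for Med12 and 0.414% for combined depletion relative to Control. All 3 differences use the same Control library. Set directly against the Cdk8-CycC depletion, with no Control value involved, vg was higher by 0.26 in the Med12 and by 0.29 in the combined depletion, which differed from each other by 0.03.

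With Med12 targeted, vg detection was higher than in Control mainly in the GFP-positive set, while genes at large were detected more often in both sets. In GFP-positive cells the vg share was 9.6 points higher under Med12 depletion than in Control and 10.7 points higher under combined depletion, against a median over all compared genes of 15.5 and 15.7 points. In GFP-negative cells, which are taken to be undepleted, vg differed by 1.8 and -1.2 points, against medians of 12.9 and 11.7 points. Ordered by signed difference, 5.20% of genes lay below vg in GFP-negative cells under Med12 and 0.362% under combined depletion, and for the GFP-positive set these shares were 23.9% and 23.5%. Under Cdk8-CycC depletion vg differed from Control by 2.6 points in GFP-positive and 2.9 points in GFP-negative cells, against medians of 6.1 and 2.3 points. The fold of vg compares the sets of 1 library and does not tell apart a change in depleted dorsal cells from one in ventral cells.

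**Figure D2:**
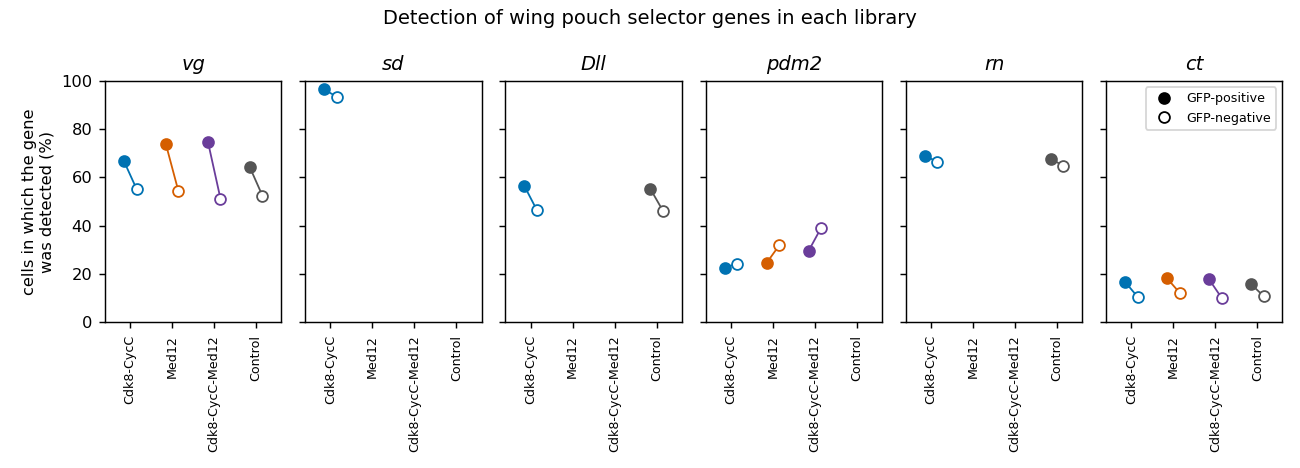
Percentage of cells in which each member was detected in the 4 libraries, with filled points for GFP-positive and open points for GFP-negative cells; nub, at 100% in every set, is left out. The open points lie above the filled ones for pdm2 only, and the vg gap is widest in the Med12 and combined depletions.

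Its DNA-binding partner sd had a row in the Cdk8-CycC table only. There it was found in 96.5% of GFP-positive cells and 93.5% of GFP-negative cells, with a log2 fold of -0.17, the 69th lowest of 6799 genes. With no Control value, nothing can be said of sd relative to Control. Dll, which the Wingless gradient switches on in the distal pouch, had rows for the Cdk8-CycC depletion and Control. Under Cdk8-CycC depletion 56.5% of GFP-positive cells and 46.4% of GFP-negative cells had Dll, beside 55.3% and 46.2% in Control. The log2 folds of Dll were 0.07 and 0.01, a difference of 0.06, and 78.7% of compared genes had a lower value. Dll was thus close to even in both libraries, and dve had no row in any table.

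The nubbin gene was the member furthest from even. Its log2 fold was -0.33 in the Cdk8-CycC depletion, -0.45 in the Med12 depletion and -0.52 in the combined depletion, against -0.36 in Control. In all 4 libraries nub was among the genes with the lowest folds, as the 21st lowest under Cdk8-CycC, the 10th under Med12, the 9th under combined depletion and the 8th in Control. Mean nub expression was thus lower in the GFP-positive than in the GFP-negative cells, by 1.43-fold in the combined and 1.36-fold in the Med12 depletion, and by 1.28-fold already in Control. Since nub detection was the condition for a cell to enter the tables, at 100% in all 8 cell sets, its detection share carries no information and its fold leaves out all cells without it.

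Relative to Control the nub fold differed by 0.03 under Cdk8-CycC, -0.09 under Med12 and -0.16 under combined depletion, none past the size rule. The last was the 48th lowest of 4973 compared genes and the Med12 value the 106th lowest of 4574. Passing the rule within the Med12 and combined libraries but not in Control does not show that nub differed between them. Both calls depend on the base of the deposited logarithm, which the files do not state. Read as log2 values instead of natural logs, the nub folds would be -0.31 under Med12 and -0.36 under combined depletion, and neither would pass.

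The paralogue pdm2, which lies close to nub on arm 2L with 1 gene starting between them in RefSeq Release 6, stood on the same side. Its log2 fold was -0.13 in the Cdk8-CycC, -0.17 in the Med12 and -0.28 in the combined depletion, and Control had no row for it. Detection followed the fold. It was 22.6% in GFP-positive and 24.2% in GFP-negative cells of the Cdk8-CycC library, 24.5% and 31.8% with Med12 depleted, and 29.5% and 39.1% with all 3 targeted subunits depleted. A gene found in fewer GFP-positive cells is rare in these tables, at 0.427% of genes for Cdk8-CycC, 1.15% for Med12 and 0.549% for combined depletion. The gap for pdm2 was -1.6, -7.3 and -9.6 percentage points. Set against each other without Control, the pdm2 fold was lower by 0.15 in the combined than in the Cdk8-CycC depletion, while Med12 and Cdk8-CycC depletion differed by -0.03. Whether reads of the related nub and pdm2 transcripts could be confused in counting was not stated.

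The pouch gene rn, which also patterns the distal leg, had rows for the Cdk8-CycC depletion and Control. Detection was 68.9% in the GFP-positive and 66.6% in the GFP-negative set of the depletion, and 67.8% and 64.8% in those of Control. The log2 folds were -0.25 and -0.26, the 33rd and the 21st lowest of their tables, and they differed by 0.01. Mean rn expression was lower in dorsal cells by about 1.19-fold in both libraries.

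The margin gene ct was detected in few cells, and its shares and folds did not go together. The Cdk8-CycC library had ct in 16.7% of GFP-positive cells and 10.5% of GFP-negative cells, with a log2 fold of -0.02. Under Med12 depletion the shares were 18.2% and 12.2% with a fold of 0.01, and under combined depletion 17.8% and 10.1% with a fold of -0.19. In Control they were 15.8% and 10.8% with a fold of 0.05. The GFP-positive share was the higher in every library, as for nearly all genes, and the combined depletion paired the widest gap in detection with the lowest fold.

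Relative to Control the ct fold differed by -0.07 under Cdk8-CycC, -0.04 under Med12 and -0.24 under combined depletion. The combined value was the 20th lowest of 4973 genes and did not pass the size rule. By the ratio of detection shares the same differences were 0.12, 0.03 and 0.27, and with that ratio centred on the median of all genes 0.03, 0.11 and 0.30, on the other side of 0. The direction of ct relative to Control thus depended on the measure.

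**Figure D3:**
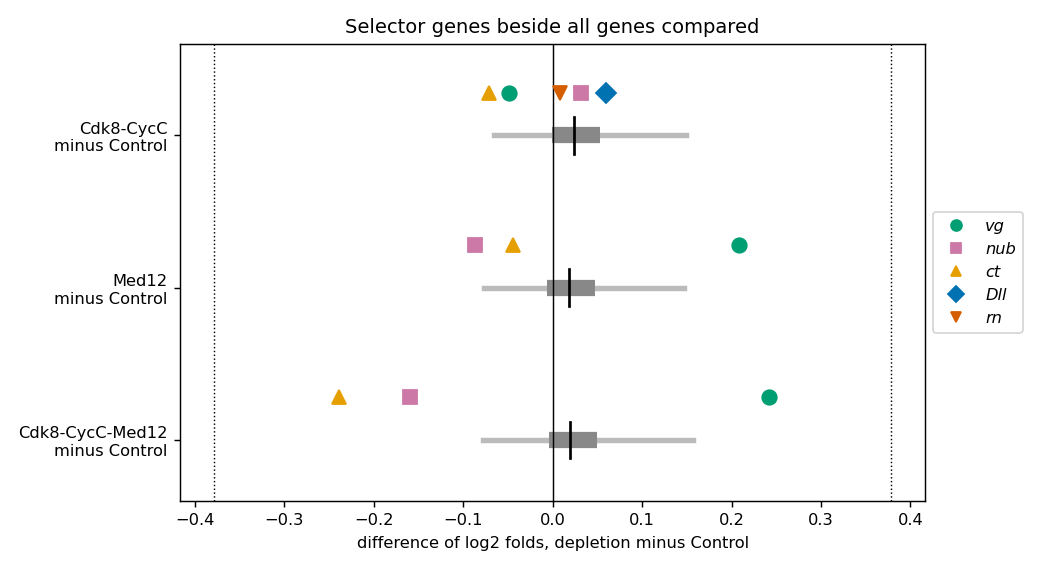
Log2 fold in each depletion minus that in Control for the members compared (symbols), above all genes compared (thick bar, middle 50%; thin bar, central 95%; tick, median); dotted lines mark a fold of 1.3. In the combined depletion vg (0.24) lies above and nub (-0.16) and ct (-0.24) below the central 95% of genes, and all points lie inside the dotted lines.

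The members were set beside the spread of all genes compared. The central 95% of genes lay between -0.07 and 0.15 for Cdk8-CycC, -0.08 and 0.15 for Med12 and -0.08 and 0.16 for combined depletion relative to Control. Under Cdk8-CycC depletion, 4 of the 5 members compared lay inside this range and ct just below it. Under Med12 depletion vg lay above it and nub below it, with ct inside. Under combined depletion all 3 members compared lay outside it, vg above and nub and ct below. The spread of genes describes these pairs of libraries and is no measure of replicate error.

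Only vg, nub and ct had a row in all 4 tables, and for vg and ct the genes with the most similar detection were looked up. The measure was Pearson's r over the 8 cell sets, after a logit transform and centring of each set on its median gene, among 4299 other genes. The closest to vg were RpL4 (r = 0.96), which encodes a ribosomal protein, Lsm11 (0.94), which encodes a protein of histone mRNA processing, and CG9410 (0.94). The closest to ct were drm (0.99), CG34404 (0.97) and rgr (0.97). The log2 folds of RpL4 were -0.15, -0.11 and -0.13 in the Cdk8-CycC, Med12 and combined depletions and -0.05 in Control, unlike those of vg. The 8 cell sets are pairs from 4 libraries, and share library depth. These r values are the highest of 4299 searched over 8 points, so high values were selected for and show no shared regulation. Among the markers of the peripodial membrane, the thin epithelium over the disc, drm was found in 9.0% to 10.7% of GFP-positive cells and 5.6% to 6.8% of GFP-negative cells, and this list's part in the ct values was not tested. The whole list had 5, 4, 5 and 5 of 5 genes measured in the Cdk8-CycC, Med12, combined and Control libraries. Its shares summed to between 121.3% and 123.8% in GFP-positive and between 35.2% and 56.3% in GFP-negative cells, most of it from Ubx, at 88.1% to 96.0% and 18.6% to 39.7%. The Hox gene Ubx passed the size rule in every library, with log2 folds of 3.86 in the Cdk8-CycC, 4.58 in the Med12 and 4.51 in the combined depletion, against 4.62 in Control, and relative to Control in the Cdk8-CycC depletion, at -0.76. The other peripodial markers lay between -0.07 and 0.05, and their shares without Ubx summed to 27.9%, 34.4% and 33.2% in GFP-positive and 14.6%, 21.2% and 16.6% in GFP-negative cells of the Cdk8-CycC, Med12 and combined depletions, against 25.5% and 15.1% in Control. The origin of the Ubx signal was not tested, and Ubx is not read here as a sign of peripodial cells.

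Among genes known to work with the selectors, only ap and hth passed the size rule. Of 9 such genes, 8 had a row for the Cdk8-CycC, 8 for the Med12 and 7 for the combined depletion, and 6 for Control. The Hippo effector gene yki lay between -0.02 and 0.04 in all 4 libraries, and Tgi, which encodes a repressor that binds Sd, between 0.03 and 0.09. Chi, whose product bridges Apterous dimers, had log2 folds of 0.03, 0.13 and 0.07 in the Cdk8-CycC, Med12 and combined depletions, against -0.02 in Control. The homeodomain gene hth, which is kept out of the distal pouch, had a lower mean in GFP-positive cells, at -0.58 in both the Med12 and the combined depletion. It passed the size rule there and had no row in the other tables. Detection of hth was 85.2% in GFP-positive and 80.0% in GFP-negative cells under Med12 depletion, and 88.8% and 81.8% under combined depletion. So hth was found in most of these nub-positive cells, and its shares and folds went opposite ways. The Rn cofactor gene nab had folds of -0.02 under Cdk8-CycC and -0.17 under Med12 depletion. No gene of this group passed the rule relative to Control.

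Other genes of the pouch lay mostly below 0 in all 3 depletions. Of 12 such genes, 6 of 8 measured were below 0 under Cdk8-CycC, 5 of 6 under Med12 and 5 of 6 under combined depletion, against 3 of 6 in Control. Over all genes these shares were 22.4%, 26.1% and 23.9%, against 44.2% in Control. The genes with a row differed between the libraries, and so the counts and medians do not compare the same genes. Their median log2 folds were -0.02, -0.12 and -0.25 in the depletions, against -0.02 in Control. The POU gene vvl, related in its DNA-binding domain to nub, was at -0.41, -0.81 and -1.03, against -0.39 in Control, and passed the size rule in every library. Its detection was higher in GFP-positive cells of the Cdk8-CycC (90.4% and 89.5%) and Control (90.6% and 87.5%) libraries. It was lower there under Med12 (89.5% and 91.1%) and combined depletion (91.6% and 94.3%). Relative to Control, vvl differed by -0.42 under Med12 and -0.64 under combined depletion, and was the only gene of this list past the rule there. With the deposited fold read as log2, vvl would pass in the Med12 and combined depletions and relative to Control in the combined one alone, at -0.44. The zinc-finger gene elB was at -0.31 under Med12 and -0.50 under combined depletion and had no row in the other tables. It passed the size rule in the combined depletion, though not with the fold read as log2 (-0.35). By detection elB was the higher in GFP-positive cells there, at 79.8% against 77.1%.

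Genes of the wing margin and of the boundary of dorsal and ventral cells went both ways. Of 13 genes, Ser and fng, dorsally expressed genes of Notch signalling, had the highest folds in all 4 libraries. Ser was at 0.35, 0.27 and 0.55 in the Cdk8-CycC, Med12 and combined depletions and 0.33 in Control, and passed the size rule in the combined depletion. The fng fold lay between 0.30 and 0.37 throughout. The ligand gene wg was at 0.08, -0.22 and -0.18, against 0.04 in Control. Relative to Control, 6 of 9 measured margin genes lay below 0 under Cdk8-CycC, 7 of 8 under Med12 and 4 of 6 under combined depletion, and none passed the size rule. Among all genes compared, 25.4%, 30.8% and 29.0% lay below 0 in these differences. Of 10 genes of the hinge, which borders the pouch, 9 had a row in the combined depletion, with 7 above 0 and 2 below. Over all genes 23.9% lay below 0 there. The 2 below were hth and zfh2, and both passed the size rule. The log2 fold of zfh2 was -0.67, against 0.00 in Control, and the difference of -0.67 passed the rule too. Relative to Control, 5 of 5 hinge genes compared lay below 0 under Cdk8-CycC, 4 of 4 under Med12 and 4 of 5 under combined depletion. Among all genes compared these shares were 25.4%, 30.8% and 29.0%.

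**Figure D4:**
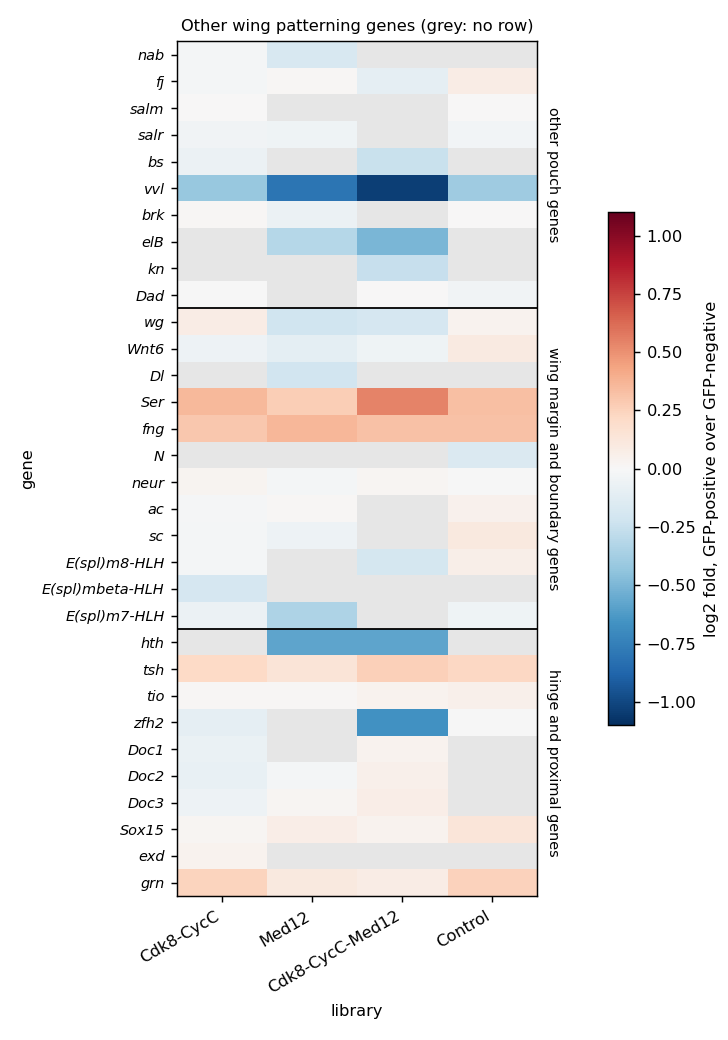
Log2 fold of mean expression, GFP-positive over GFP-negative cells, for other pouch genes, margin genes and hinge genes (rows) in the 4 libraries (columns), with grey for genes that had no row. The lowest fold is that of vvl, at -1.03 in the combined depletion against -0.39 in Control, and hth is low in the Med12 and combined depletions, where it had a row.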

How the data were processed

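The deposited tables, 1 per library, hold the authors' own tests of GFP-positive against GFP-negative cells. Cell Ranger 3.0.2 and Seurat made them, per the submitters' processing notes. Of genome build, cell filters and doublets nothing is given in the sources used. The deposited fold is taken as a natural log of a ratio of mean expression, with a pseudocount, as its column name implies, and it understates differences of genes with low expression. The deposited detection values are fractions of cells, shown as percentages. The first share in a row belongs to the set named as higher, as the values of ap and if show. The authors' p-values take each cell as a replicate, and no result here rests on them. The sign was taken from the named set, as the signed column lacked 853 values in the combined depletion.

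Folds were converted to log2 with Python 3.11.15, pandas 2.3.3 and numpy 2.4.6, and subtracted between libraries over genes with a row in both. Size was judged at a fold of 1.3, over genes detected in at least 10% of cells of either set. Conversion and calling were tested on simulated data. The members, lists and size rule were chosen with earlier results of these data known. All members were named in every library, as were the targeted genes, list genes past the size rule, others illustrating a list, and the 3 genes most like a member. Symbols come from the tables and matched the reference gene IDs for all 8 members. No sequences were read, as no genome or sequence table was used here.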

Additional observations from a re-analysis of the deposited data

Results flagged for a closer look

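Member genes whose fold lay on opposite sides of 0 in a depletion and in Control were looked up, and none of these differences could be tested with 1 library each. The vg fold was above 0 under Med12 depletion (0.18) and combined depletion (0.22) and below 0 in Control (-0.03), differences of 0.21 and 0.24. The ct fold was below 0 under Cdk8-CycC depletion (-0.02) and combined depletion (-0.19) and above 0 in Control (0.05), differences of -0.071 and -0.24.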

How the results depend on the processing

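Members past the size rule were recounted under each alternative. By the plain ratio of detection shares, 1 passed in the Cdk8-CycC (ct), 2 in the Med12 (vg and ct), 3 in the combined (vg, pdm2 and ct) and 1 in the Control library (ct). Of these only pdm2 was lower in GFP-positive cells. The median gene stood at log2 ratios of 0.60, 0.42, 0.48 and 0.49 (Cdk8-CycC, Med12, combined, Control), past the 0.38 that the rule requires. A higher GFP-positive share past this size was thus the rule among genes at large. With the ratio centred on the median gene, the counts were 4, 2, 2 and 2 (Cdk8-CycC, Med12, combined, Control), all below that median. Among these was nub in every library, but its share of 100% in every set fixed its value in advance. The sd and rn shares counted here were themselves higher in GFP-positive cells. They were 96.5% and 93.5% for sd and 68.9% and 66.6% for rn under Cdk8-CycC depletion, and 67.8% and 64.8% for rn in Control. At a fold of 1.2 the counts were 1 in the Cdk8-CycC, 2 in the combined and 1 in the Control library. At a fold of 1.5, and with the deposited fold read as log2, they were 0 in the Med12 and 0 in the combined library. The share of all genes that passed was not counted for any alternative. The ct fold turned round by the plain detection ratio, to 0.67 under Cdk8-CycC and 0.82 under combined depletion, where the median gene stood at 0.60 and 0.48, and centred on that median it was 0.07 and 0.34. Of 32 calls of list genes other than members, 21 were kept and 11 lost with the deposited fold read as log2, a count added after seeing the data; among the lost were those of if in the 3 depletions and Dr in the combined one. Centring the folds and dropping the detection minimum changed no count. Relative to Control the count was 0 in each depletion under every alternative, including genes without a row set to 0. The choice of replicates could not be varied, and unknown depth limits all shares.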

Other observations

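Lists for neighbouring and distal territories were read beside the selector genes. Of the notum genes, which belong to the body wall part of the disc, 0 of 8 measured lay below 0 under Cdk8-CycC, 3 of 5 under Med12 and 1 of 8 under combined depletion, against 0 of 8 in Control. Over all genes the shares below 0 were 22.4%, 26.1% and 23.9%, against 44.2% in Control. Relative to Control, 7 of 8, 5 of 5 and 6 of 8 notum genes lay below 0 in these depletions, beside 25.4%, 30.8% and 29.0% of all genes compared. The medians of the list were -0.01, -0.07 and -0.06, and none of its genes passed the size rule. Leg genes, among them partners of Dll in that limb, had 4, 4 and 6 of 9 genes measured in the depletions and 5 of 9 in Control, with none past the rule in any library.

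Among other markers, the tracheal list had 2, 3 and 3 of 4 genes measured in the Cdk8-CycC, Med12 and combined depletions and 2 of 4 in Control. Its median log2 folds were 0.15, -0.02 and -0.12, against 0.09 in Control. These medians do not cover the same genes, as trh had a row in the Med12 and combined depletions alone. Over genes also in Control, the median difference was 0.05, -0.04 and -0.16. The genes verm and serp were found in 35.3% to 78.3% of cells, and the list is not read here as a sign of tracheal cells. The list of neurons and sensory organs had 2, 1 and 1 of 5 genes measured, against 1 of 5 in Control, with no gene past the size rule.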
